A study of Mus musculus with 14 samples.

Results

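Cyp2b9, Cyp2b10 and Cyp2b13 are 3 mouse cytochrome P450 genes of the Cyp2b subfamily, and they were followed here in the liver of old female mice with or without the bile transporter Mdr2 and the cytokine IL6. They are 3 of the 19938 genes that could be tested, listed by name, and the probe of each was chosen by its mean value over all arrays, the highest among probes that carry 1 gene name. Each of the 3 has exactly 1 such probe and no other probe names it, so that rule made no choice between probes. The genes themselves were listed with earlier results of these arrays known, so the tests below describe them and are no independent support for their direction.

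Liver tissue free of tumour came from female mice aged 14 months. Wild type were C57BL/6 (3 arrays), and the other groups lacked Mdr2 (Mdr2-KO, 5 arrays) or lacked both Mdr2 and IL6 (Mdr2-KO/IL6-KO, 6 arrays). All mice shared sex, age and housing. The strain of the knockouts was not known here, so a strain difference and the loss of the targeted genes cannot be told apart. The gene formerly called Mdr2 is now Abcb4; its product moves phosphatidylcholine from hepatocytes into bile, and mice without it develop chronic bile duct injury and later liver tumours. IL6 is the cytokine that drives the hepatic acute phase response. RNA was measured on an Affymetrix mouse gene array, and the values are on the log2 scale, where a difference of 1 is a 2-fold change. The labels do not state that each array is a separate mouse, so the spread behind each p-value is that of arrays, which may be technical.

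Cytochromes P450 are heme enzymes of the endoplasmic reticulum that oxidise drugs, steroids and fatty acids with electrons from P450 reductase. Cyp2b10 is the classic target of CAR (Nr1i3), the nuclear receptor through which phenobarbital and bilirubin raise drug metabolism in hepatocytes. Cyp2b9 and Cyp2b13 are female-predominant in adult mouse liver, and the pituitary pattern of growth hormone release sets that sex difference. All belong to a tandem cluster of Cyp2 genes, in which the annotation places Cyp2b10, Cyp2b13 and Cyp2b9 next to each other.

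The sequences before the start sites show how the 3 genes pair off and are given because a pair of them moved together across the arrays. They are from RefSeq on GRCm38.p6, all on the plus strand, as far as each lies before the annotated gene. Capitals mark the bases at which Cyp2b9 and Cyp2b13 differ. The Cyp2b9 stretch is chr7:26173159-26173301, that of Cyp2b13 is chr7:26061245-26061387 and that of Cyp2b10, which has no capitals, is chr7:25897408-25897657.
Cyp2b9: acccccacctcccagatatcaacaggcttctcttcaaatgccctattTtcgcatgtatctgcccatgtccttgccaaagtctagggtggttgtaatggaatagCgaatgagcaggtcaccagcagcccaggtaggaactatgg
Cyp2b13: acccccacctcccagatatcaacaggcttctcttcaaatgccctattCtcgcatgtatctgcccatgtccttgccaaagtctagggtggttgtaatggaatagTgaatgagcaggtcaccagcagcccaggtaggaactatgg
Cyp2b10: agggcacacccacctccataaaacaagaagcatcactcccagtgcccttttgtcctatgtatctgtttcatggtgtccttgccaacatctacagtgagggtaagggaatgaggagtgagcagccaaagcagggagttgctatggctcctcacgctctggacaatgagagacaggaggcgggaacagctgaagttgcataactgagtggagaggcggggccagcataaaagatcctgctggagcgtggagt

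Over the 300 bases of the start window (250 before the start and 50 after it) Cyp2b9 and Cyp2b13 were identical at 298, or 99.3%. Both differences lay before the start, C48T and T104C, with the Cyp2b13 base first and positions counted from the first base of the window. Cyp2b10 matched either of them at 223 of 289 aligned bases (77.2%). The nuclear receptor half-site AGGTCA, searched on both strands, occurred once in Cyp2b9 and once in Cyp2b13, at position 113 of the window in each, and not in the Cyp2b10 window. It also stood in the windows of Cyp2b19 and Cyp2b23, and 16.3% of the 32851 windows in the table hold it. The other motifs searched were AGTTCA (in 14.0% of windows), TTCNNNGAA for STAT5 (8.30%), ATCAAT for HNF6 (7.54%), TTATGTAA for PAR bZIP factors (0.938%) and TATAAA (13.6%), and these letters occurred in none of the 3 windows. The enhancer through which CAR acts on Cyp2b10 lies farther upstream and was not examined.

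Some facts of the arrays come first. Abcb4 signal fell in both knockouts (log2 difference -1.36 and -1.32, limma adjusted p = 5.09e-06 and 4.84e-06) with no overlap with wild type. Il6 lay under the background level of 5.48 in all 14 arrays, so the arrays give no check of the IL6 label; that level is the 95th percentile of the means of 1027 olfactory receptor genes. Xist, the RNA of the inactive X chromosome, read 11.69 to 11.92 and the Y-linked Uty, Kdm5d and Eif2s3y lay under background on every array, as the female label says. Array medians ran from 6.15 to 6.24. Precision is limited by how few arrays each group has. A probe's height depends on the probe, so levels are compared between groups and never between genes.

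The first question was how the Cyp2b genes differ between Mdr2-KO and wild-type liver. All 3 were lower in Mdr2-KO, Cyp2b13 by the widest margin and Cyp2b9 by the narrowest. All 3 passed the threshold of an adjusted p of 0.05 in limma (Benjamini-Hochberg over 19938 genes). In the same test 12.1% of all genes tested were lower. All 3 also had every Mdr2-KO array below every wild-type array, which held for 13.2% of the genes. In bulk liver, fewer cells that express a gene and less RNA per cell cannot be told apart.

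Cyp2b10, the CAR target, read 9.09, 9.44 and 9.09 in wild type. In Mdr2-KO it read 7.67, 6.66, 7.38, 7.86 and 7.40. The groups stand apart by more than a log2 unit, with a mean of 9.21 ± 0.20 (SD, n = 3) in wild type and 7.40 ± 0.46 (n = 5) in Mdr2-KO. The difference was -1.81 (SE 0.29, 3.51-fold lower, limma adjusted p = 0.000826). It kept its direction and its call under all 22 alternative settings.

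Cyp2b9, a female-predominant enzyme, read 12.30, 12.15 and 12.41 in wild type. In Mdr2-KO it read 11.25, 10.90, 10.27, 11.97 and 11.69. Mdr2-KO arrays 4 and 5 came closest to wild type and array 3 lay farthest from it, so the knockout spread was several times the wild-type spread: 12.29 ± 0.13 (SD, n = 3) against 11.22 ± 0.67 (n = 5). The difference was -1.07 (SE 0.31, 2.10-fold lower, limma adjusted p = 0.0231). It no longer passed when wild-type array 1 (adjusted p = 0.0622) or 3 (0.0901) was left out.

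Cyp2b13, the near copy of Cyp2b9, read 10.05, 10.94 and 10.33 in wild type. In Mdr2-KO it read 7.26, 6.22, 5.23, 8.82 and 9.73. Array 3, at 5.23, was under the background level and the only one of the 14 arrays at which Cyp2b13 was. Array 5 came close to the lowest wild-type array, while array 3 lay far below it, and the means were 10.44 ± 0.45 (SD, n = 3) and 7.45 ± 1.84 (n = 5). The difference was -2.99 (SE 0.85, 7.95-fold lower, limma adjusted p = 0.0226). It no longer passed when wild-type array 2 (adjusted p = 0.0602) or 3 (0.0693) was left out, nor with trend and robust moderation (0.0530). Without Mdr2-KO array 3 the difference was -2.44 (adjusted p = 0.0404).

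**Figure D1:**
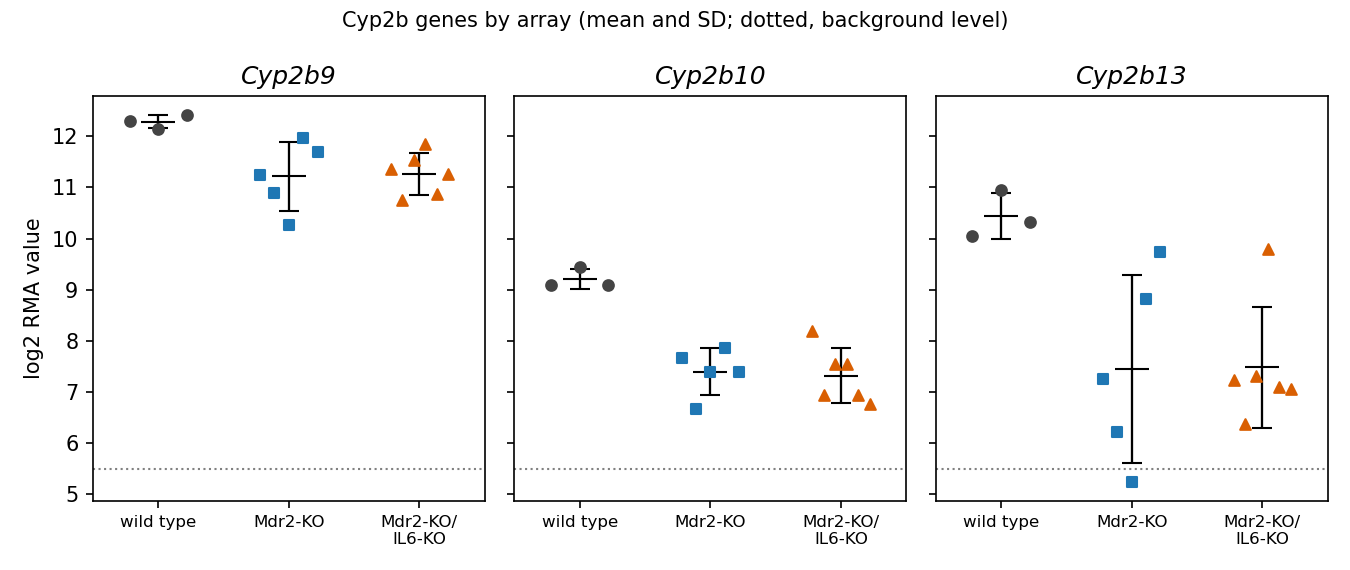
Log2 values of Cyp2b9, Cyp2b10 and Cyp2b13 on each of the 14 arrays by group, with the group mean and SD, and the background level of 5.48 as a dotted line; heights are not comparable between panels. In each panel all knockout points lie below all wild-type points, the 2 knockout groups overlap, and Cyp2b13 spreads most within the knockouts.

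The next question was how the same genes stand when IL6 is missing as well. Mdr2-KO/IL6-KO arrays were also lower than wild type for all 3 genes, and this comparison shares its wild-type arrays with the last, so they are not separate evidence. Each of the 3 passed the threshold, where 5.33% of all genes tested were lower. Each had all knockout arrays below all wild-type arrays, as did 6.56% of the genes.

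Cyp2b10 ran from 6.76 to 8.20 with a median of 7.24 over the 6 Mdr2-KO/IL6-KO arrays. Its mean was 7.32 ± 0.55 (SD, n = 6). Array 1 was the highest, and it remained below the lowest wild-type array. The difference from wild type was -1.89 (SE 0.28, 3.70-fold lower, limma adjusted p = 0.000557), and it kept its direction and call under all 22 alternatives.

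Cyp2b9 ran from 10.75 to 11.84 with a median of 11.31 and a mean of 11.27 ± 0.41 (SD, n = 6). Array 2 was the lowest and array 4 the highest. The difference from wild type was -1.02 (SE 0.30, 2.03-fold lower, limma adjusted p = 0.0354). It no longer passed when any wild-type array was left out (adjusted p = 0.0989, 0.0672 and 0.119 for arrays 1, 2 and 3), or array 2 (0.0664) or 5 (0.0611) of its own group. Nor did it pass over all probes (0.0620) or with trend and robust moderation (0.0706).

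Cyp2b13 ran from 6.37 to 9.79 with a median of 7.17 and a mean of 7.48 ± 1.18 (SD, n = 6). Arrays 1, 2, 3, 5 and 6 lay together between 6.37 and 7.31, and array 4 stood apart at 9.79, near the lowest wild-type array. The difference from wild type was -2.97 (SE 0.82, 7.82-fold lower, limma adjusted p = 0.0280). It no longer passed when any wild-type array was left out (adjusted p = 0.0626, 0.0957 and 0.0778 for arrays 1, 2 and 3), or array 2 of its own group (0.0531). Nor did it pass over all probes (0.0512), with array quality weights (0.0521) or with trend and robust moderation (0.0688).

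The third comparison asks whether loss of IL6 moves the Cyp2b genes in mice that already lack Mdr2. None of the 3 passed the threshold between the knockout groups, where 8.76% of all genes tested did, and their arrays overlapped throughout. The difference, Mdr2-KO/IL6-KO minus Mdr2-KO, was -0.08 for Cyp2b10 (95% interval -0.59 to 0.44, limma adjusted p = 0.855). For Cyp2b9 it was 0.05 (-0.49 to 0.60, adjusted p = 0.903). These intervals exclude a change of 2-fold in either direction. For Cyp2b13 it was 0.02 with a much wider interval, -1.47 to 1.52 (adjusted p = 0.984), so for this gene a 2-fold change either way lies within the interval. None of the 3 passed at an unadjusted p of 0.05 in limma either, nor under any of the 22 alternatives.

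Whether the 3 genes fell by unequal amounts was tested on the difference between a pair of probes within each array. The zero of that difference has no meaning, but its change between groups does. Cyp2b13 minus Cyp2b9 averaged -1.84 ± 0.56 (SD, n = 3) in wild type, against -3.79 ± 0.87 (n = 6) in Mdr2-KO/IL6-KO and -3.76 ± 1.24 (n = 5) in Mdr2-KO. The change was -1.92 in Mdr2-KO (2-sided exact permutation test, p = 0.107, the smallest possible being 0.0357) and -1.95 in Mdr2-KO/IL6-KO (exact p = 0.0714, smallest possible 0.0238). Cyp2b10 minus Cyp2b9 changed by -0.74 and -0.87 (exact p = 0.143 and 0.0714). Cyp2b13 minus Cyp2b10 changed by -1.18 and -1.08 (exact p = 0.250 and 0.167). The lowest of the 9 adjusted p, those of the 3 tests between the knockouts included, was 0.300 (exact permutation). With these group sizes the 6 tests against wild type could not pass the adjusted threshold by themselves even at their smallest p, so these tests do not settle whether the falls were equal.

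Within the knockout groups Cyp2b9 and Cyp2b13 moved together and Cyp2b10 did so less. In Mdr2-KO, array 3 was the lowest and array 2 the next lowest for both Cyp2b9 and Cyp2b13, and arrays 4 and 5 were the highest. In Mdr2-KO/IL6-KO, array 2 was the lowest and array 4 the highest for both. The wild-type arrays did not share an order: array 2 was the lowest for Cyp2b9 (12.15) and the highest for Cyp2b13 (10.94). Over the 14 arrays the Pearson correlation of Cyp2b13 with Cyp2b9 was 0.934, the highest that Cyp2b9 had with any of the 14161 genes compared, and it was 0.870 between the deviations from the group means. That of Cyp2b10 was 0.773 with Cyp2b9 (0.471 between deviations) and 0.754 with Cyp2b13 (0.395). The low Mdr2-KO array 3 was not low for Cyp2b10, where it read 7.38, and the array highest for Cyp2b10 in Mdr2-KO/IL6-KO was array 1. These correlations describe 14 arrays that share their groups and their normalization. Probe sequences were not used here, so whether transcripts of the near copies Cyp2b9 and Cyp2b13 reach each other's probe was not tested.

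**Figure D2:**
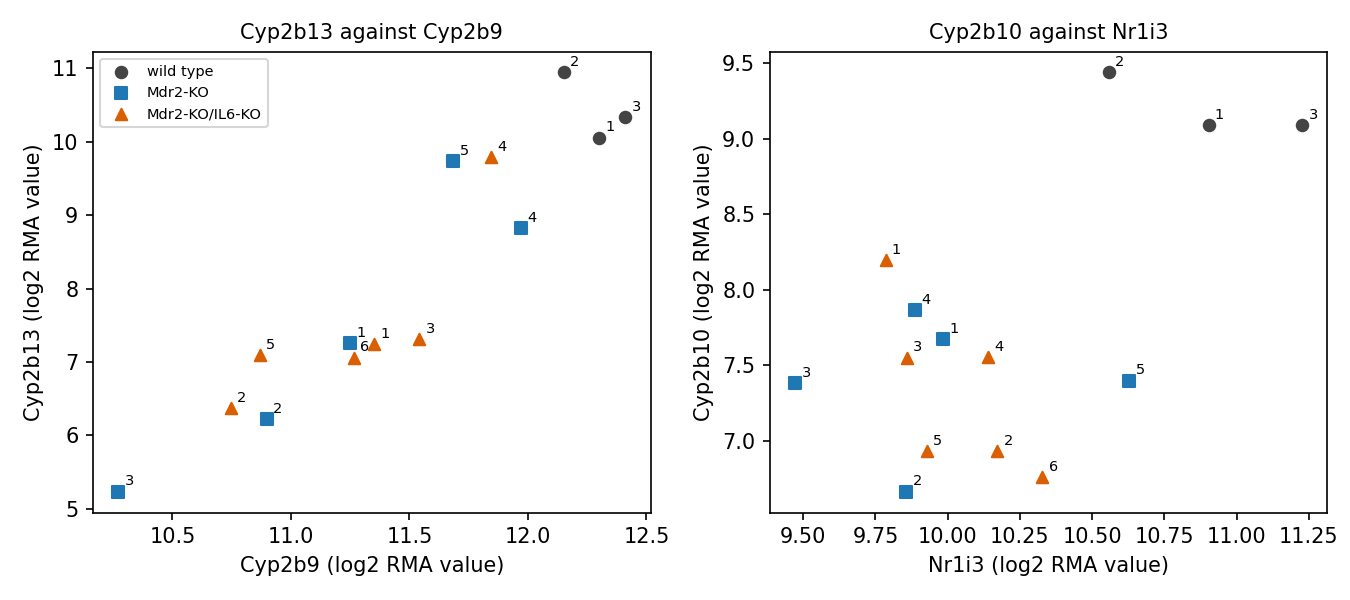
Left, Cyp2b13 against Cyp2b9; right, Cyp2b10 against Nr1i3; each point is 1 of the 14 arrays, in log2 values, numbered within its group. On the left, Mdr2-KO array 3 lies at the bottom and Mdr2-KO arrays 4 and 5 and Mdr2-KO/IL6-KO array 4 lie nearest to wild type. On the right the wild-type arrays lie highest for Cyp2b10, and among Mdr2-KO/IL6-KO arrays the highest for Cyp2b10, array 1, is the lowest for Nr1i3. A link between Nr1i3 and Cyp2b10 was not tested.

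The genes most like each Cyp2b gene over the 14 arrays, among genes with a mean above background, were named by rank. After Cyp2b13, those most like Cyp2b9 were Pfdn2, a prefoldin subunit (r = 0.926), Rdh7, a retinol dehydrogenase (0.915), Acot4, a peroxisomal acyl-CoA thioesterase (0.903), and Hao2, a hydroxy acid oxidase (0.901). After Cyp2b9, those most like Cyp2b13 were Apol7a (0.933), Rnf170 (0.907), Pfdn2 (0.907) and the carbonic anhydrase Car1 (0.899). Their deviations from the group means correlated at 0.826 to 0.894, so the likeness is also present within groups. A correlation does not give the size of a fall. Rdh7 passed in neither knockout (-0.14 and -0.09, limma adjusted p = 0.109 and 0.362), and Apol7a and Car1 passed only in Mdr2-KO. The others named so far were lower in both. Hao2 was above background on only 2 of 5 Mdr2-KO and 3 of 6 Mdr2-KO/IL6-KO arrays. For Cyp2b10 the named genes were Gamt, which makes creatine (0.923), Pik3r1, a regulatory subunit of PI3 kinase (0.921), Etfb, a mitochondrial electron carrier (0.904), and Angptl6 (0.903). Their deviations correlated at 0.503 to 0.694, so more of the likeness of these named genes lay between the groups. The gene ranked first for Cyp2b10, a gene model of the Rik kind left unnamed, had r = 0.935. Its deviations correlated at 0.817, so this reading does not hold for it. Cyp2b10 ranked 86th of the genes like Cyp2b9 and 110th of those like Cyp2b13.

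The fall was then set beside the rest of the Cyp2 cluster. Of its 10 other genes on a list chosen with earlier results known, 8 had a probe of their own, and Cyp2a4 and Cyp2a5 had only probes that name several genes. None of the 8 was higher and 3 were lower in Mdr2-KO (median -0.24, all genes tested -0.07), and in Mdr2-KO/IL6-KO only Cyp2b19 was lower (median -0.15, all genes -0.02). Of all genes tested 12.1% and 5.33% were lower. The 3 lower in Mdr2-KO were Cyp2g1 (-0.54, limma adjusted p = 0.0127), Cyp2b19 (-0.40, 0.0340) and Cyp2t4 (-0.31, 0.0293). Cyp2g1 and Cyp2t4 lay under the background level on every array, wild type included. Cyp2b19 lay above it on 2 of 3 wild-type arrays and on no knockout array. These calls thus compare values at or near background and show no clear fall of the cluster. In Mdr2-KO the count was 1 after quantile normalization and without Mdr2-KO array 2 or wild-type array 1 or 3, and in Mdr2-KO/IL6-KO the call on Cyp2b19 (-0.50, adjusted p = 0.0124) did not hold when wild-type array 1 (0.0732) or 3 (0.0618) was left out. Cyp2a12 and Cyp2f2, which read 11.67 to 11.78 and 12.14 to 12.31 in the group means, did not pass in any comparison.

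Cyp2a22, another gene of the cluster, also varied widely between arrays. It read 10.88, 9.85 and 9.79 in wild type and 8.99, 8.68, 5.99, 9.87 and 9.45 in Mdr2-KO, array 3 being the lowest. Its difference of -1.58 did not pass (SE 0.66, limma adjusted p = 0.0969), nor did that of -0.87 in Mdr2-KO/IL6-KO (adjusted p = 0.449).

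**Figure D3:**
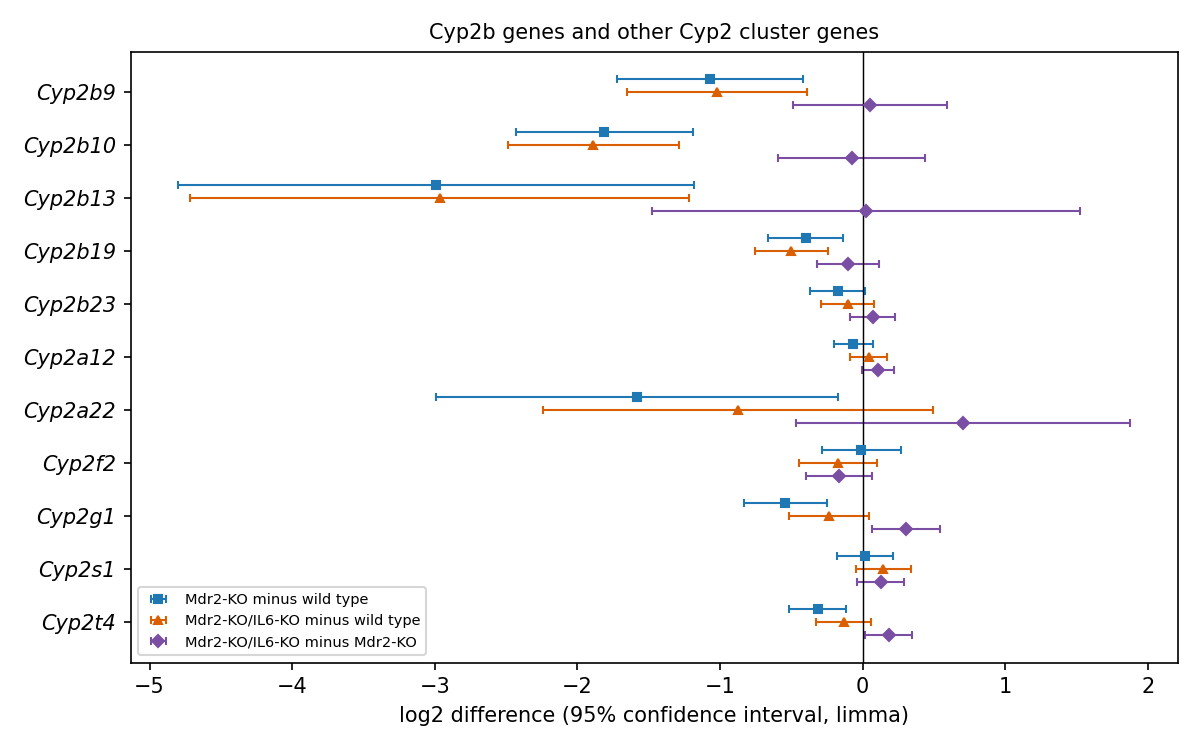
Log2 differences with 95% confidence intervals (limma) for the 3 Cyp2b genes and 8 other Cyp2 cluster genes in the 3 comparisons. The Cyp2b9, Cyp2b10 and Cyp2b13 intervals lie below 0 against wild type and cover 0 between the knockouts, and those of Cyp2b13 and Cyp2a22 are the widest.

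The receptors above Cyp2b10 were read next. Nr1i3 (CAR) read 10.90, 10.56 and 11.23 in wild type and 9.98, 9.86, 9.47, 9.89 and 10.63 in Mdr2-KO. Array 5 of Mdr2-KO lay above the lowest wild-type array, so the groups overlapped. Nr1i3 was lower by the fit, -0.93 (SE 0.20, limma adjusted p = 0.00583). In Mdr2-KO/IL6-KO it ran from 9.79 to 10.33, below all wild-type arrays, with a difference of -0.86 (SE 0.20, adjusted p = 0.00976) that was not called without wild-type array 3 (0.0691). Mdr2-KO array 5, the highest for Nr1i3 among the knockouts, read 7.40 for Cyp2b10, the middle value of its group. Whether Nr1i3 has a part in the fall of Cyp2b10 was not tested. Nr1i2 (PXR), the sister receptor, differed by -0.18 and -0.08 (adjusted p = 0.448 and 0.821).

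Of 17 measured genes on the list of CAR and PXR with their partners, 2 were higher and 1 lower in Mdr2-KO, where 8.89% of all genes were higher and 12.1% lower. In Mdr2-KO/IL6-KO 2 were lower and none higher, where 5.33% of all genes were lower and 6.96% higher. Besides Nr1i3 these include the chaperone Hsp90aa1, which holds CAR in the cytoplasm and was higher in Mdr2-KO (0.71, SE 0.15, limma adjusted p = 0.00440), with a difference of 0.32 that did not pass in Mdr2-KO/IL6-KO (0.172). In Mdr2-KO 1 was higher without array 1 or 2 of wild type, 1, 3 or 4 of Mdr2-KO or 1, 3, 4, 5 or 6 of Mdr2-KO/IL6-KO, and 2 were lower without array 1 of wild type, 1 or 3 of Mdr2-KO or 6 of Mdr2-KO/IL6-KO. In Mdr2-KO/IL6-KO the count of lower genes was 1 without array 1 or 2 of wild type or array 1 or 3 of Mdr2-KO/IL6-KO, 0 without wild-type array 3 and at most 3. Between the knockouts the EGF receptor Egfr, whose signalling keeps CAR inactive, was lower with IL6 also missing (-0.91, SE 0.20, adjusted p = 0.0152). The difference in Cyp2b10 there did not pass, and a link between Egfr and Cyp2b10 was not tested.

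Other genes that CAR and PXR induce did not move one way with Cyp2b10. Of 29 measured, 5 were higher and 6 lower in Mdr2-KO (median -0.03), and 7 were higher and 7 lower in Mdr2-KO/IL6-KO (median -0.02). Over all genes, 8.89% were higher and 12.1% lower in Mdr2-KO, and 6.96% were higher and 5.33% lower in Mdr2-KO/IL6-KO. The P450 genes Cyp2c37 (-1.62 and -1.43, limma adjusted p = 0.000542 and 0.00127) and Cyp2c54 (-1.01 and -1.17, 0.00464 and 0.00175) were lower. The glucuronosyltransferase Ugt2b35 was higher in both (0.85 and 0.48, adjusted p = 0.000384 and 0.0160), though not in Mdr2-KO/IL6-KO when wild-type array 1 (0.0838) or 3 (0.0898) was left out. The epoxide hydrolase Ephx1 was also higher in both (0.60 and 0.90, 0.0136 and 0.00106), though not in Mdr2-KO when wild-type array 1 was left out (0.0612). Without wild-type array 3 the 6 lower in Mdr2-KO became 2 and the 7 higher in Mdr2-KO/IL6-KO became 3.

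Cyp2b enzymes need heme and electrons, and of 14 measured genes for these, 2 were lower in Mdr2-KO and 3 were lower in Mdr2-KO/IL6-KO, with none higher in either (medians -0.16 and -0.10). Of all genes 12.1% and 5.33% were lower, so the count in Mdr2-KO is near the share over all genes. Cpox, an enzyme of heme synthesis, was lower in both (-0.46 and -0.64, limma adjusted p = 0.00762 and 0.000833). The 3 were 1 over all probes and without wild-type array 1 or 3, and the 2 were 1 when array 2 or 3 of wild type, array 1, 3 or 4 of Mdr2-KO or array 3 or 5 of Mdr2-KO/IL6-KO was left out. A single gene was higher in Mdr2-KO without wild-type array 2 or Mdr2-KO/IL6-KO array 1, and in Mdr2-KO/IL6-KO without Mdr2-KO array 3 or 5. Por, the P450 reductase, has no probe of its own here.

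Because Cyp2b9 and Cyp2b13 are female-predominant, the list of other female-biased liver genes stands beside them. Of 19 measured, 10 were lower and 2 higher in Mdr2-KO (median -0.63), and 10 were lower and 2 higher in Mdr2-KO/IL6-KO (median -0.64). The medians over all genes were -0.07 and -0.02. Of all genes 12.1% were lower and 8.89% higher in Mdr2-KO, and 5.33% were lower and 6.96% higher in Mdr2-KO/IL6-KO. With any 1 array left out 9 to 11 of the 19 were lower. Sult3a1, a sulfotransferase, averaged 8.60 ± 1.83 on the wild-type arrays. In Mdr2-KO/IL6-KO it fell to 2.60 ± 0.12 (limma adjusted p = 0.000374) and in Mdr2-KO to 3.51 ± 1.99 (0.00139), means under background, though array 3 of Mdr2-KO read 7.06. A1bg, a plasma glycoprotein, fell by 3.04 and 3.36 (limma adjusted p = 0.00393 and 0.00198). Its wild-type arrays ran from 7.66 to 10.77, and the highest Mdr2-KO array, at 7.67, overlapped them. A1bg was above background on 4 of 5 Mdr2-KO and 3 of 6 Mdr2-KO/IL6-KO arrays. The 2 that rose were the P450 Cyp2c39 (2.53 and 2.59, adjusted p = 6.5e-08 and 5.73e-08) and the neurotrophin receptor Ntrk2 (1.35 and 1.11, 0.000280 and 0.00105), which were named after their values were seen. The wild-type arrays varied widely in this list, with array means from 8.44 to 9.14.

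Male-biased genes moved both ways. Of 19 measured, 6 were higher and 3 lower in Mdr2-KO (median 0.18), and 8 were higher and 4 lower in Mdr2-KO/IL6-KO (median 0.01). Beside these, 8.89% of all genes were higher and 12.1% lower in Mdr2-KO, and 6.96% were higher and 5.33% lower in Mdr2-KO/IL6-KO. The largest rises were those of Cyp4a12a (3.22 and 3.38, limma adjusted p = 0.00143 and 0.000905) and Cyp4a12b (2.81 and 3.29, 0.00163 and 0.000471). The steroid hydroxylase Cyp2d9 rose in both (1.97 and 2.02, limma adjusted p = 1.41e-07 and 6.19e-08). The 4 lower became 1 without wild-type array 1 or 3 and 2 without Mdr2-KO/IL6-KO array 6.

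The growth hormone axis sets the sex bias of Cyp2b9 and Cyp2b13. On a list of that axis and other sex-bias regulators, 2 of 18 measured genes were higher and 2 lower in Mdr2-KO. In Mdr2-KO/IL6-KO 4 were lower and none higher. The counts in Mdr2-KO are near the shares over all genes (8.89% higher, 12.1% lower), and in Mdr2-KO/IL6-KO 5.33% of all genes were lower. The growth hormone receptor Ghr was lower in both (-0.49 and -0.49, limma adjusted p = 0.00110 and 0.000980). The estrogen receptor Esr1 was lower in both (-0.60 and -0.98, adjusted p = 0.0125 and 0.000578), though not in Mdr2-KO when wild-type array 3 was left out (0.0534). Bcl6, a repressor that opposes STAT5, was higher in Mdr2-KO (0.93, adjusted p = 0.0149), though not when wild-type array 1 (0.0621) or 3 (0.0597) was left out or with only the compared groups fitted (0.0505). It was lower in Mdr2-KO/IL6-KO than in Mdr2-KO (-0.73, adjusted p = 0.0384). That call was lost with trend and robust moderation (0.0575), with Mdr2-KO array 1, 2 or 4 left out (0.0960, 0.0639 and 0.0953) and with any array of Mdr2-KO/IL6-KO left out (0.0508 to 0.0763), and against wild type the difference there was 0.21 (0.655). Stat5b, the transcription factor that carries the growth hormone signal, differed by 0.13 and 0.17 and did not pass (adjusted p = 0.319 and 0.239). Cux2, a female-specific repressor, was counted on the female-biased list above and is not among the 18 genes. It was lower in both (-0.82 and -0.78, limma adjusted p = 0.00906 and 0.0130). In Mdr2-KO it no longer passed when wild-type array 1 was left out (0.0537). The call in Mdr2-KO/IL6-KO was lost without wild-type array 1 (0.0912) or 3 (0.0583). Without wild-type array 3 the 4 lower became 2 and the 2 lower became 1, and the 2 higher became 1 without wild-type array 2 or 3 or Mdr2-KO array 3, 4 or 5 and 0 without wild-type array 1.

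**Figure D4:**
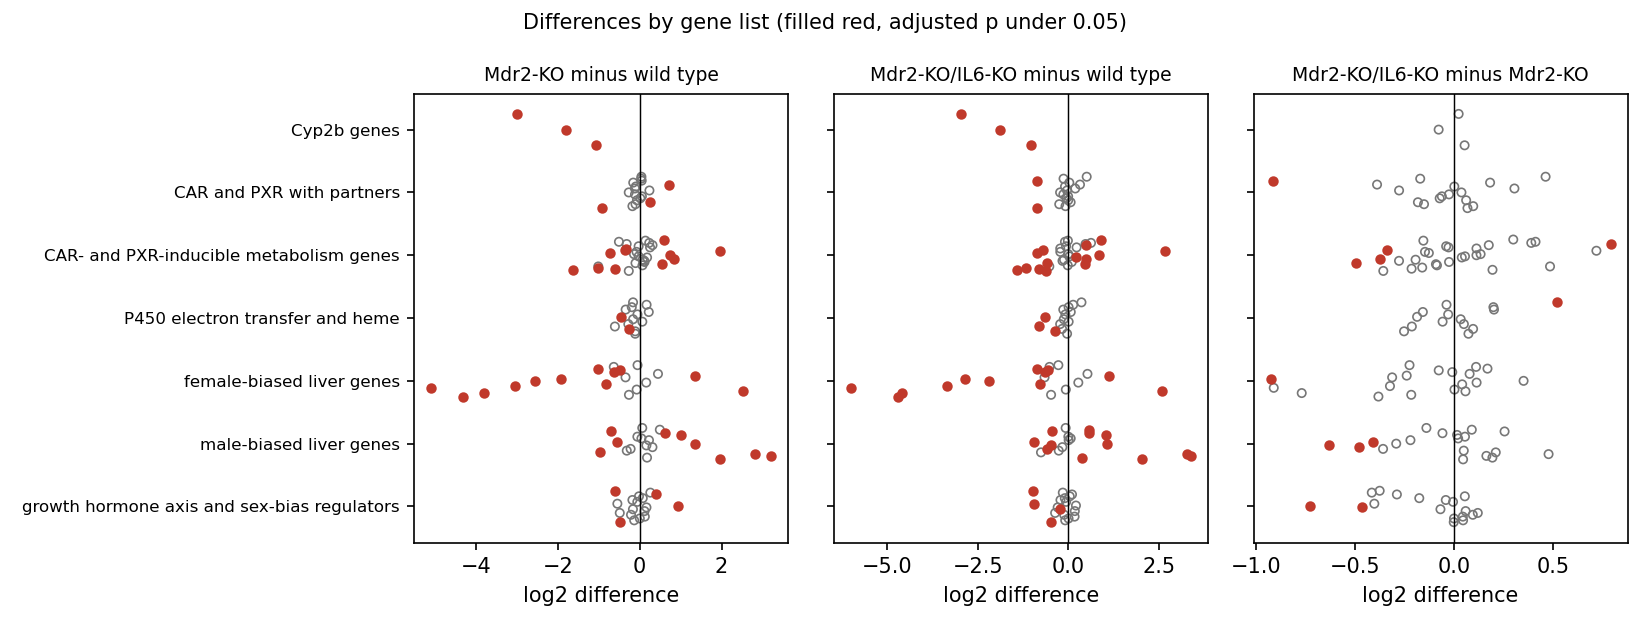
Log2 difference of each measured gene for the 3 Cyp2b genes and 6 lists, in the 3 comparisons (each panel has its own scale); filled red points have an adjusted p under 0.05. The Cyp2b genes lie left of 0 in both comparisons with wild type and near 0 between the knockouts, the female-biased list lies mostly left of 0, and the CAR- and PXR-inducible list lies on both sides.

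The make-up of the tissue was read from marker lists. For comparison, 8.89% of all genes were higher and 12.1% lower in Mdr2-KO, and 6.96% were higher and 5.33% lower in Mdr2-KO/IL6-KO. Hepatocytes express the Cyp2b genes, and their 11 measured markers averaged 12.37 to 12.40 on wild-type arrays and 12.33 to 12.44 on knockout arrays, none under background. Asgr1 was the only one to pass, in Mdr2-KO (-0.27, limma adjusted p = 0.0430), and it no longer passed without wild-type array 1, any of Mdr2-KO arrays 1 to 4 or Mdr2-KO/IL6-KO array 1, 2 or 4. Of 8 bile duct markers 4 rose in Mdr2-KO and 5 rose in Mdr2-KO/IL6-KO, with none lower, and their array means were 6.06 to 6.64 for wild type, where 2 of 8 markers were under background, 6.97 to 7.77 for Mdr2-KO/IL6-KO and 6.96 to 7.70 for Mdr2-KO. Of 10 macrophage markers 4 were higher in each knockout (2 in Mdr2-KO/IL6-KO without wild-type array 3), with array means of 7.86 to 8.21 for wild type, 8.32 to 8.74 for Mdr2-KO/IL6-KO and 8.34 to 8.58 for Mdr2-KO. Of 10 stellate and fibroblast markers 3 and 4 were higher and 1 lower in each (array means 7.96 to 8.07 for wild type, 7.91 to 8.65 for knockouts; with single arrays left out 1 to 5 and 2 to 4 were higher). Of 7 lymphocyte markers 2 and 4 were lower (6.38 to 7.44 for wild type, 5.76 to 6.47 for knockouts), and none were without wild-type array 2. Endothelial markers passed for at most 1 of 7 in either direction (8.54 to 8.66 for wild type, 8.35 to 8.79 for knockouts). Bile duct and macrophage markers moved with the fall of the Cyp2b genes, and their part in it was not tested.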

How the data were processed

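The deposited table holds log2 values that the authors made with Partek and RMA, per the submitters' processing notes (background correction, quantile normalization between arrays, probe summary). Not given in the sources used here are tool versions, the build behind the probes and any pooling, and no batch was labelled. Per the labels, RNA came from frozen tissue by Trizol with DNase treatment and was labelled as biotinylated cRNA. Of 35557 probes, 21789 carried 1 gene name (21698 matched by gene identifier), 1621 carried several and 12147 none, and only the first kind was used. A gene was read by its probe of highest mean, which left 19938 genes with no filter on dim genes, and 29.0% of them average under background. No pair of arrays shared more than 0.0619% of values.

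Tests used limma 3.58.1 in R 4.3.3: 3 group means over 14 arrays, moderated 2-sided test, Benjamini-Hochberg adjustment over all genes, threshold 0.05. On simulated data of 19938 genes, seeded changes of 0.5 log2 units were recovered at 76% between the knockouts, 68% for Mdr2-KO minus wild type and 82% for Mdr2-KO/IL6-KO minus wild type, and changes of 1 unit at 96% to 100%. The simulation gave a gene the same SD in every group and seeded randomly chosen genes. It does not give the recovery for the Cyp2b genes: Cyp2b13 had an SD of 0.45 in wild type and 1.84 in Mdr2-KO. Exact permutation tests used scipy 1.17.1, promoter alignments used Biopython 1.88, and plots used matplotlib 3.10.9 under Python 3.11.15.

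Members and lists were chosen with earlier results of these data known. Named were the Cyp2b genes, their cluster, Abcb4, Il6, Nr1i3, Nr1i2, Stat5b, Bcl6, Cux2 and sex chromosome genes, per list up to 4 genes past the threshold with the largest difference (shown in part, mostly those whose call held with any array left out), and the 5 genes most correlated with each Cyp2b gene, gene models of the Rik and Gm kind left unnamed. Alternatives were quantile normalization, centring on array medians, dropping the dimmest genes, averaging the probes of a gene, testing all probes, trend and robust moderation, array weights, only the 2 groups compared and leaving out each array.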

Additional observations from a re-analysis of the deposited data

Results flagged for a closer look

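Cyp2b13 on Mdr2-KO/IL6-KO array 4 read 9.79, apart from the 5 other arrays of that group. The same check, whether the extreme array's gap to its nearest neighbour is wide for the range of its group, was run on 64 genes in the knockout groups, 128 cases in all, and marked 13, where chance marks about 1 in 20. Mdr2-KO array 3, the lowest for Cyp2b9 and Cyp2b13, was the extreme array for 3 of these genes: Ephx1 was low at 10.75, Sult3a1 high at 7.06 and Orm2 high at 12.84. Mdr2-KO array 4 was low for Cyb5r3 at 11.48 and high for Angptl6 at 6.86, and array 5 was low for Ntrk2 at 8.15 and for Cdh1 at 9.55. Among Mdr2-KO/IL6-KO arrays, array 1 was low for Slc22a26 at 7.50 and high for Etfb at 11.35, array 2 high for Cyp17a1 at 7.25, and array 6 high for Onecut1 at 8.46 and for Xist at 11.90.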

How the results depend on the processing

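Cyp2b10 kept its fall and its call against wild type in both knockouts under all 22 alternatives, and Cyp2b9 and Cyp2b13 kept their direction there but not always the call. With trend and robust moderation Cyp2b13 in Mdr2-KO stayed at -2.99 without passing. In Mdr2-KO/IL6-KO, Cyp2b13 (-2.97) and Cyp2b9 (-1.02) did not pass over all probes or with trend and robust moderation, which left 1 Cyp2b gene called, and Cyp2b13 did not pass with array weights at -2.53. With each array left out in turn, 1 to 3 Cyp2b genes passed in Mdr2-KO (1 without wild-type array 3) and 1 to 3 in Mdr2-KO/IL6-KO (1 without any of the wild-type arrays or its own array 2). Over those fits Cyp2b13 ran from -3.56 to -2.44 and from -3.43 to -2.72 against wild type, and Cyp2b9 from -1.26 to -0.84 and from -1.13 to -0.91. Between the knockouts, where none passed, the sign turned: Cyp2b9 -0.18 to 0.24, Cyp2b10 -0.26 to 0.041, Cyp2b13 -0.53 to 0.59 and Nr1i3 -0.054 to 0.23. Nr1i2 in Mdr2-KO/IL6-KO ran from -0.16 to 0.054. The causes were not tested.

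All genes past the threshold numbered 2140 to 4507 in Mdr2-KO (2140 without wild-type array 3) and 754 to 2164 between the knockouts, where all 35557 probes gave 2944 and centring on array medians moved the lower share of calls from 42.4% to 52.4%. No scaling moved the median of all genes by over 0.1. No paired analysis was possible because the labels give the groups no shared replicate numbers. With 3 wild-type arrays, each of them weighs on every call against wild type, and Cyp2b13 in Mdr2-KO reaches the background level.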

Other observations

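Further lists, chosen with earlier results known, were set beside the Cyp2b genes. Of 16 genes of the pericentral zone, where Cyp2b enzymes are most abundant in hepatocytes, 5 were lower in Mdr2-KO and 3 were lower in Mdr2-KO/IL6-KO, none higher (medians -0.27 and -0.26). Among all genes 12.1% and 5.33% were lower (medians -0.07 and -0.02). The 3 pericentral genes lower in Mdr2-KO/IL6-KO became 0 without wild-type array 3 and 1 without array 1. The 5 lower in Mdr2-KO became 2 and 3 in the same cases and 3 without Mdr2-KO array 4. Of 12 periportal genes 3 were higher in each knockout, where 8.89% and 6.96% of all genes were higher. Hal was the 1 periportal gene lower in Mdr2-KO (-0.37, limma adjusted p = 0.0477), and none was lower in Mdr2-KO/IL6-KO. Cdh1, an adhesion protein of that zone, rose by 2.01 and 2.10 (limma adjusted p = 5.38e-05 and 3.51e-05). In bulk liver the cells behind the Cdh1 rise cannot be told. The 3 higher in Mdr2-KO became 1 without wild-type array 3.

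Hlf, a clock-driven PAR bZIP factor, was lower by 0.53 in both knockouts (limma adjusted p = 0.00306 and 0.00281). Larger differences in its list included Dbp (-1.35 and -1.17, 0.0219 and 0.0495), Per3 (-1.30 and -1.04, 0.0109 and 0.0390) and Arntl (1.09 and 0.96, 0.0229 and 0.0477). Of the 13 measured genes of that list 5 were lower and 2 higher in Mdr2-KO, and 4 were lower and 1 higher in Mdr2-KO/IL6-KO. The shares of all genes were 12.1% lower and 8.89% higher in Mdr2-KO, and 5.33% lower and 6.96% higher in Mdr2-KO/IL6-KO. The 5 became 3 without wild-type array 1 or 3, and the 4 ran from 1 to 5 with single arrays left out. Of 22 acute phase genes, 8 were lower in Mdr2-KO/IL6-KO than in Mdr2-KO and 14 did not pass (median -0.26), beside 741 of 19938 genes lower in all (median 0.06). The 8 became 5 without Mdr2-KO/IL6-KO array 2. Among them were Saa3 (-0.98, adjusted p = 0.00484) and the orosomucoid Orm2 (-1.20, 0.0196).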
